A study of Mus musculus with 10 samples.

Results

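The transcriptome of mouse T cells given a CRISPR interference guide against the P1 promoter of Pou2f1 was compared, gene by gene, with that of mock-treated T cells. In CRISPR interference a guide RNA brings a catalytically dead Cas9 to a promoter so that transcription from it is repressed. The comparison takes 4 of the 10 deposited samples, chosen by their labels. They are the T cell samples titled Mock and sgRNA1, the latter called sgRNA-P1 below. All are polyA RNA from primary T cells of the spleen, and the other samples of the study are B cells. Within a group the 2 columns differed by less than the sampling noise, as parts of 1 library would, and their sum was taken as 1 sample. The comparison therefore rests on 2 of 5 libraries, with no replicate and no p-value. Strain, sex and age of the animals, the number of animals, how the T cells were selected, how dead Cas9 was supplied and for how long the guide was present were not given in those labels or protocols.

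The product of Pou2f1 is Oct-1, a transcription factor of the POU family that is present in most cell types and binds the octamer motif in promoters and enhancers. In T cells Oct-1 is known for its part in cytokine and metabolic gene control and in the formation of memory. Its gene uses alternative promoters, and its relatives in lymphocytes are Oct-2, encoded by Pou2f2, and the coactivator OCA-B, encoded by Pou2af1. RefSeq on GRCm38.p6 lists 3 starts for Pou2f1. The 250 bases before each are shown because a promoter of this gene is the target. Which start corresponds to P1, and the guide's own sequence, were not given in the labels.

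Pou2f1 start 1, chr1:166002635-166002884, minus strand: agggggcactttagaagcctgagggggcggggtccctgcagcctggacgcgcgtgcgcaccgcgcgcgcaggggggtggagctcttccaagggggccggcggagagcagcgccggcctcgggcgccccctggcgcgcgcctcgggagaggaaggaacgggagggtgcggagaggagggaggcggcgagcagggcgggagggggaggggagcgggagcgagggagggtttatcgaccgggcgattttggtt
Pou2f1 start 2, chr1:165953072-165953321, minus strand: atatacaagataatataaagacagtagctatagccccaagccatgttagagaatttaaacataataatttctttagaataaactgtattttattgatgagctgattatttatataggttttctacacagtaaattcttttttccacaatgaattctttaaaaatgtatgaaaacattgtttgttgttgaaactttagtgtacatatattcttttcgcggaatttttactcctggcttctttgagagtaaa
Pou2f1 start 3, chr1:165934949-165935198, minus strand: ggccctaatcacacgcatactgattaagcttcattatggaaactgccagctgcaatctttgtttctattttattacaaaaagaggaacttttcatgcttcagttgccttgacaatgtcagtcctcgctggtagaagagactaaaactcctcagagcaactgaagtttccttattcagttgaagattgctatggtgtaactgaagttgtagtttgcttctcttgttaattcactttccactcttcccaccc

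The first stretch holds 74.4% G and C, the second 26.8% and the third 40%. The second start lies 49.6 kb and the third 67.7 kb downstream of the first. None of the 3 stretches holds the octamer ATGCAAAT on either strand. Counts were deposited per gene and not per start, so transcripts from different starts are not separated.

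Pou2f1 was lower in the guide library. Its unscaled level was 138.6 CPM (counts scaled to the library total) in each of the 2 mock columns, from 5724 and 4234 reads. It was 67.1 CPM in each of the 2 guide columns, from 1210 and 1431 reads. Columns of a group are parts of 1 library, so their agreement is no replication. After scaling Pou2f1 stood at 138 CPM [134 to 142] in mock against 66.1 CPM [62.6 to 69.8] with the guide. Brackets here and below are 95% intervals that cover counting error only. The level left was 47.9% of mock [45.1 to 50.9], a log2 fold change of -1.06 [-1.15 to -0.97]. The intervals of the 2 libraries do not overlap. Where a pair of levels is given below, mock comes first. In B cells, with their own mock library, Pou2f1 went from 157 CPM to 91.1 CPM with the same guide, a log2 fold change of -0.78.

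Part of the gene is shared with a T cell gene. Pou2f1 lies on the minus strand of chromosome 1 from 165692723 to 165830247 in the deposited coordinates, where the submitters' processing notes name mm39, and it has 16597 exon bases in 20 blocks. Of these, 3007 bases, or 18.1%, are also exon of Cd247 on the opposite strand, and they make up 56.4% of the exon bases of Cd247. Cd247 gives the zeta chain, a signalling part of the T cell receptor complex. It was at 314 CPM [309 to 320] in mock against 273 CPM [266 to 281] with the guide, a log2 fold change of -0.20 [-0.25 to -0.15]. The labels do not give the strand setting of the counting, so reads in the shared bases cannot be told apart and the values of both genes in T cells are uncertain. In B cells, where Cd247 was at 0.414 CPM in the mock library and 0.664 CPM in the guide library, Pou2f1 was lower too.

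The measured relatives of Pou2f1 were less than 1.2-fold apart. Pou2f2 was at 59.0 CPM in both T cell libraries, with a log2 fold change of 0.00 [-0.10 to 0.10]. Pou2af1 was at 20.9 CPM [19.4 to 22.4] in mock against 23.8 CPM [21.7 to 26.03] with the guide, 0.19 higher on the log2 scale [0.02 to 0.36]. Their intervals overlap at the edge. Pou2f3, the Oct factor of tuft cells, had no read in either library, for which the upper bounds of the exact Poisson intervals are 0.102 CPM and 0.185 CPM. Of the 67 genes within 1 Mb of Pou2f1, 10 reached 5 CPM, and none of them was 1.2-fold apart. They ran from -0.20 for Cd247 to 0.10 for Mpc2, a subunit of the mitochondrial pyruvate carrier. Rcsd1, a regulator of actin capping, was the other neighbour whose interval lay below 0, at -0.06 [-0.11 to -0.01].

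The rest of the transcriptome differed little between the libraries. Their totals were 71858511 reads in mock and 39352816 with the guide. Of the 56893 genes, 10007 reached 5 CPM in the higher library, with a median log2 fold change of -0.02, and 86.8% of them lay within 1.1-fold. Above 0 lay 4142 of them and below 0 5865. At least 1.5-fold apart were 6 genes higher with the guide (0.06%) and 5 lower (0.05%). At least 1.2-fold apart were 121 higher (1.21%) and 126 lower (1.26%). With libraries scaled by total reads alone they were 146 and 106. A gene can pass the filter through the library where it is high: of the 9810 genes at 5 CPM or more in both libraries 3 were 1.5-fold higher and 4 lower, and 81 and 85 were past 1.2-fold. Srp54b, Hspd1-ps3, Rps24-ps3 and Cdc42ep4, described below, reached 5 CPM in 1 library alone. Counting intervals lay wholly above 0 for 443 genes (4.43%) and wholly below 0 for 1037 (10.4%). Scaled by total reads alone, which puts the overall median at 0.00, these numbers were 671 (6.71%) and 686 (6.86%). Among the 7189 genes at 20 CPM or more, 13 were 1.2-fold higher and 9 lower, and among the 4433 at 50 CPM or more these numbers were 3 and 1. The single gene of that last count is Pou2f1. For the same guide in B cells, at least 1.2-fold apart were 521 genes higher (5.18%) and 549 lower (5.46%) of 10062.

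**Figure D1:**
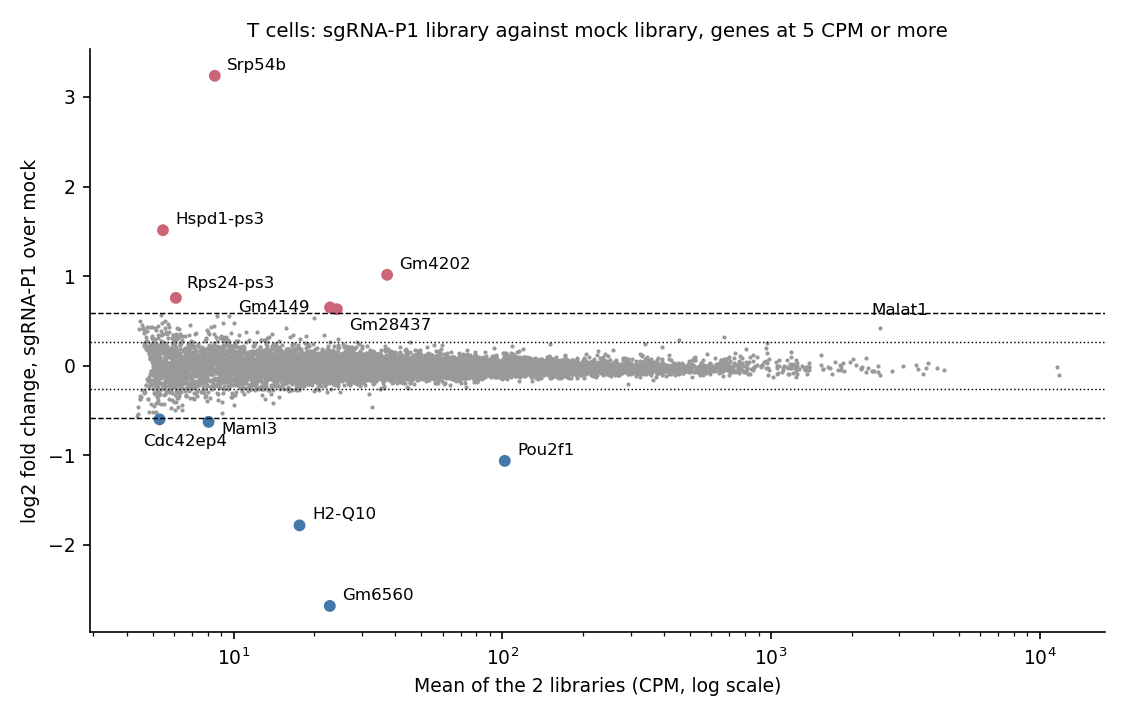
Log2 fold change of the sgRNA-P1 over the mock T cell library (y axis) against the mean level of the 2 libraries in CPM (x axis, log scale), for 10007 genes at 5 CPM or more. Dashed lines mark 1.5-fold and dotted lines 1.2-fold; the 11 genes past 1.5-fold and Malat1 are named, and Pou2f1 is the named gene below the lines with the highest level.

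The 5 genes at least 1.5-fold lower were Gm6560, H2-Q10, Pou2f1, Maml3 and Cdc42ep4. Gm6560 is a processed pseudogene on chromosome 5 (22929576 to 22931166). It went from 39.5 CPM [37.5 to 41.6] in mock to 6.14 CPM [5.12 to 7.35] with the guide, a log2 fold change of -2.68 [-2.96 to -2.41]. H2-Q10 encodes a secreted class I molecule of the Q region and lies on chromosome 17 (35780986 to 35785460). It went from 27.3 CPM [25.6 to 29.0] to 7.91 CPM [6.73 to 9.25], a log2 fold change of -1.78 [-2.04 to -1.54]. In these 2 genes the level was further from mock than in Pou2f1 itself. Maml3, a Mastermind-like coactivator of Notch, was at 9.80 CPM in mock against 6.34 CPM with the guide (-0.63 [-0.93 to -0.33]). Cdc42ep4, an effector of the GTPase Cdc42, was at 6.39 CPM and 4.21 CPM (-0.60 [-0.98 to -0.24]). Both stood just past the 1.5-fold size, and Cdc42ep4 was also close to the 5 CPM filter.

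The 6 genes at least 1.5-fold higher were Srp54b and 5 pseudogenes. Srp54b encodes a copy of the signal recognition particle subunit that binds signal peptides, and it lies on chromosome 12 (55201889 to 55236358). It was at 1.62 CPM [1.25 to 2.11] in mock, from 117 reads, and 15.4 CPM [13.7 to 17.2] with the guide, from 615 reads, a log2 fold change of 3.24 [2.83 to 3.66]. The gene has near-identical copies: Srp54a was at 6.30 CPM and 5.51 CPM (-0.19 [-0.53 to 0.14]), and Srp54c at 19.0 CPM and 18.8 CPM (-0.01). How reads that match several copies were counted is not given, so the value of each copy is uncertain. Among the other 10 members of the particle and its translocon that were measured, Sec61g was the furthest from 0, at 0.23, and the summed level of all 13 was 771 CPM in mock as against 775 CPM with the guide.

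The 5 pseudogenes above 1.5-fold were Hspd1-ps3, Gm4202, Rps24-ps3, Gm4149 and Gm28437. Hspd1-ps3 went from 2.83 CPM [2.31 to 3.43] to 8.09 CPM [6.91 to 9.46], 1.51 higher on the log2 scale, while its parent Hspd1, a mitochondrial chaperonin, was at 147 CPM and 146 CPM. Gm4202 went from 24.7 CPM [23.1 to 26.4] to 49.9 CPM [46.8 to 53.1], a log2 fold change of 1.02 [0.88 to 1.15]. Their intervals do not overlap between the libraries. Rps24-ps3 was at 4.53 CPM and 7.66 CPM (0.76), beside 1698 CPM and 1747 CPM for its parent Rps24. Gm4149 was at 17.8 CPM and 27.9 CPM (0.65), and Gm28437 at 19.0 CPM and 29.5 CPM (0.63). Reads of these pseudogenes can also match the genes they derive from, so their values are uncertain as well.

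The B cell pair, which has a separate mock library, was set beside these 11 genes. Below 0 in both cell types were Pou2f1, Gm6560 (-0.75 in B cells), H2-Q10 (-0.70) and Cdc42ep4 (-0.30), and Maml3 was at 0.07 in B cells. Above 0 in both were Srp54b (1.87 in B cells), Gm28437 (0.45) and Rps24-ps3 (0.21). Gm4202 (-0.87), Hspd1-ps3 (-1.47) and Gm4149 (-0.22) were lower in the B cell guide library and higher in the T cell one. Of the 84 genes 1.2-fold higher in T cells that also reached 5 CPM in B cells, 13 were 1.2-fold higher there (15.5%) and 16 lower (19.0%). Of the 79 genes lower in T cells, 18 were lower in B cells (22.8%) and 9 higher (11.4%). Over all 9139 genes measured in both, the shares were 4.41% higher and 5.21% lower. With 1 library per group the difference between the cell types was not tested.

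**Figure D2:**
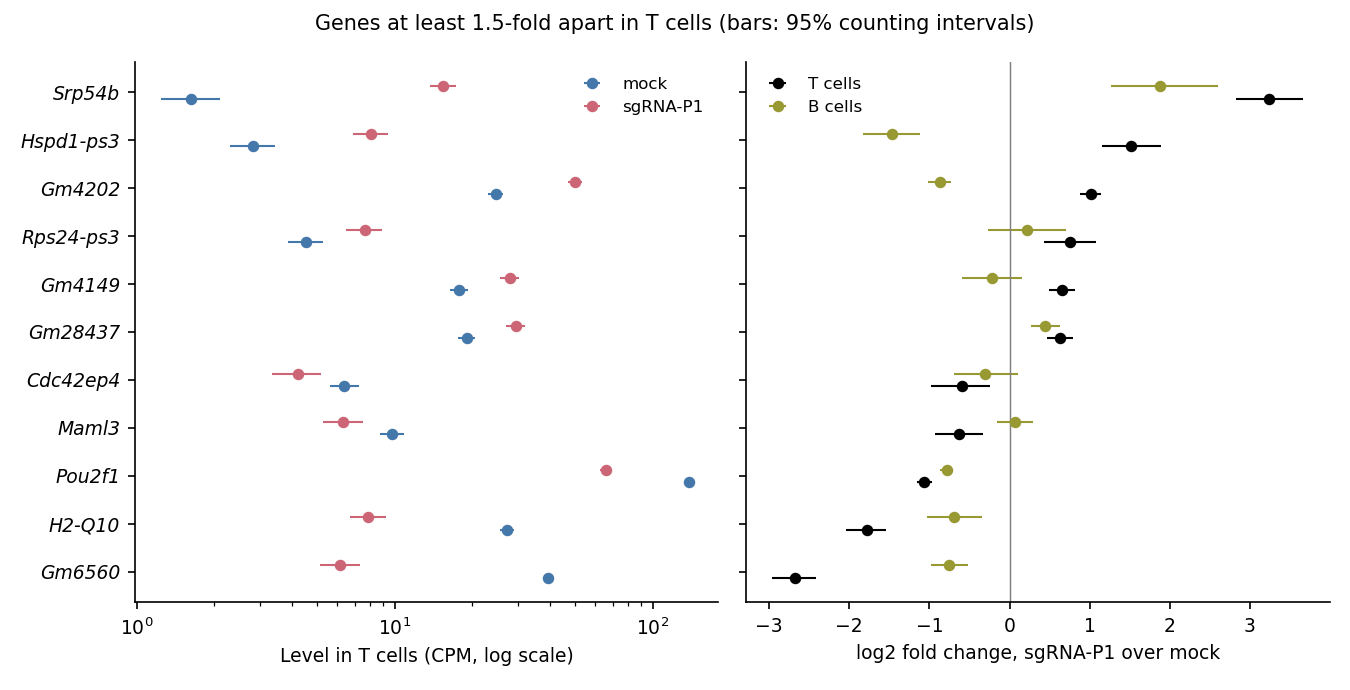
Left, level in CPM (log scale) of the 11 genes at least 1.5-fold apart, in the mock and sgRNA-P1 T cell libraries. Right, log2 fold change with the same guide in each cell type; bars are 95% counting intervals, and Gm4202 and Hspd1-ps3 lie on opposite sides of 0 in the 2 cell types.

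At 20 CPM or more, where counting error is smaller, Timm23 was the lowest gene after those past 1.5-fold. Timm23 encodes the channel of the mitochondrial inner membrane translocase, and it was at 37.8 CPM in the mock library and 27.5 CPM in the guide library, a log2 fold change of -0.46 [-0.61 to -0.32]. The other genes 1.2-fold lower at this level were Nelfa, a subunit of the negative elongation factor (35.4 and 28.4 CPM, -0.31), Clpb, a mitochondrial disaggregase (-0.29), Slc37a4, the glucose-6-phosphate transporter (-0.29), Klhl26 (-0.28) and Kansl1l (-0.27). Their counting intervals lay wholly below 0. On the higher side, beside pseudogenes, stood Trappc4 of the vesicle tethering complex (0.26), Ndufa3 of respiratory complex I (0.27), Rpl39 (0.29), Rps29 (0.32), the ribosome assembly factor Rsl24d1 (0.33) and Malat1 (0.43). In B cells Timm23 was at -0.12, Nelfa at 0.08, Clpb at -0.08, Slc37a4 at -0.13, Klhl26 at -0.11 and Kansl1l at 0.20, so none of them passed 1.2-fold there. On the higher side Trappc4 was at -0.07, Ndufa3 at -0.22, Rsl24d1 at -0.29, Rps29 at -0.44 and Rpl39 at -0.45 in B cells. Rsl24d1, Rps29 and Rpl39 were thus at least 1.2-fold lower there, while Malat1 was 1.2-fold higher, at 0.27. These 22 genes at 20 CPM, the pseudogenes included, were listed because they passed the size, so their number is a description.

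The 10 genes of lowest log2 fold change at 50 CPM or more were Pou2f1, Foxj2, Bcl9, Atg4d, Cd247, Nop14, Anxa7, Map2k2, Sh2b3 and Prag1. Foxj2, a forkhead transcription factor, was at 79.1 CPM [76.2 to 82.1] in mock against 67.1 CPM [63.5 to 70.75] with the guide, a log2 fold change of -0.24. Bcl9, a coactivator of beta-catenin, was at 68.4 CPM and 59.1 CPM (-0.21). Atg4d, an autophagy protease, was at 50.2 CPM and 43.5 CPM (-0.21), and 19.3% of its exon bases are shared with Kri1 on the opposite strand, which was at 57.8 CPM and 57.2 CPM. The remaining genes below Cd247 in size, among them the MAP kinase kinase Map2k2 and the adaptor Sh2b3, lay between -0.20 and -0.19. Except for Pou2f1, none of the 10 was 1.2-fold apart. In B cells, Foxj2, Bcl9, Anxa7 and Prag1 had log2 fold changes of 0.09, 0.09, 0.04 and 0.11, and Atg4d of -0.21.

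Malat1 had the highest log2 fold change at this level. It is a nuclear long noncoding RNA found in most cells, and it was at 2165 CPM [2150 to 2181] in mock against 2911 CPM [2888 to 2935] with the guide, 0.43 higher on the log2 scale [0.41 to 0.44]. In B cells it was 0.27 higher. Of 20 listed long noncoding RNAs, 14 reached 5 CPM and 12 of these lay above 0, with a median of 0.08 beside -0.02 over all genes. Norad (102 and 113 CPM, 0.15), Snhg1 (96.0 and 106 CPM, 0.14) and Snhg15 (0.14) followed. Intervals of 7 of the 14 lay wholly above 0 (50%, beside 4.43% of all genes and 5.75% at 50 CPM or more). Only Malat1 of the list was 1.2-fold apart. The median of the same list in B cells was -0.12.

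After Malat1, the genes of highest log2 fold change at 50 CPM or more were the ribosomal protein genes Rps29, Rpl39, Rps27, Rps21, Rpl23a and Rps28, the adaptor gene Hcst, the splicing factor gene Zmat2 and Tpt1-ps3. Rps29, a small subunit protein, was at 592 CPM [584 to 600] in mock against 742 CPM [730 to 754] with the guide, 0.32 higher on the log2 scale. Rpl39, a protein of the large subunit, was at 409 CPM and 499 CPM (0.29). Per kilobase of exon Rps29 was at 855 in mock and 1070.1 with the guide as CPM per kilobase, the highest of all genes past 1.2-fold. Of 76 measured ribosomal protein genes 53 lay above 0. Intervals lay wholly above 0 for 45 of them (59.2%) and wholly below for 11 (14.5%). These shares were 4.43% and 10.4% over all genes, and 5.75% and 17.2% over genes at 50 CPM or more. The median of the ribosomal list was 0.05, and 2 of its genes were 1.2-fold higher. The difference went with length within the list: the 25 genes of shortest coding length had a median of 0.10, the 25 in the middle 0.04 and the 26 longest 0.01. Across the 76 genes, which are not independent and share the 2 libraries, Spearman's rho with coding length was -0.48. In B cells the median was -0.22 and the order was the opposite, with a rho of 0.39. The trend was not particular to this list. Over 9144 measured genes with a coding length, rho was -0.18 in T cells. Their median was 0.01 in the fifth of shortest coding length and -0.04 in the fifth of longest. For the B cell fold changes of 9012 genes at 5 CPM or more in both T cell libraries, rho was 0.23.

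A larger share of pseudogenes than of all genes was 1.2-fold apart. Of 224 pseudogenes at 5 CPM or more 43 were 1.2-fold higher (19.2%) and 10 lower (4.46%). Of the 192 at 5 CPM or more in both libraries 26 were higher (13.5%) and 5 lower (2.60%), beside 0.826% and 0.866% of all genes so restricted. By the wider filter, under 20 CPM the shares were 23.4% higher and 5.84% lower, beside 3.83% and 4.15% over all genes of that level. At 20 CPM or more they were 10% and 1.43%, beside 0.181% and 0.125%. Among them were 28 pseudogenes of ribosomal protein genes by symbol, of which 15 were 1.2-fold higher and none lower. Of the 19 that reached 5 CPM in both libraries 6 were 1.2-fold higher, with a median of 0.12. Rpl38-ps2 was at 13.4 CPM and 17.96 CPM (0.42) beside 229 CPM and 245 CPM for Rpl38 (0.10), and Tpt1-ps3 was at 100.2 CPM and 117 CPM (0.22) beside 4188 CPM and 4120 CPM for Tpt1 (-0.02). The part of short gene length and of reads with several matches in these shares was not tested.

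**Figure D3:**
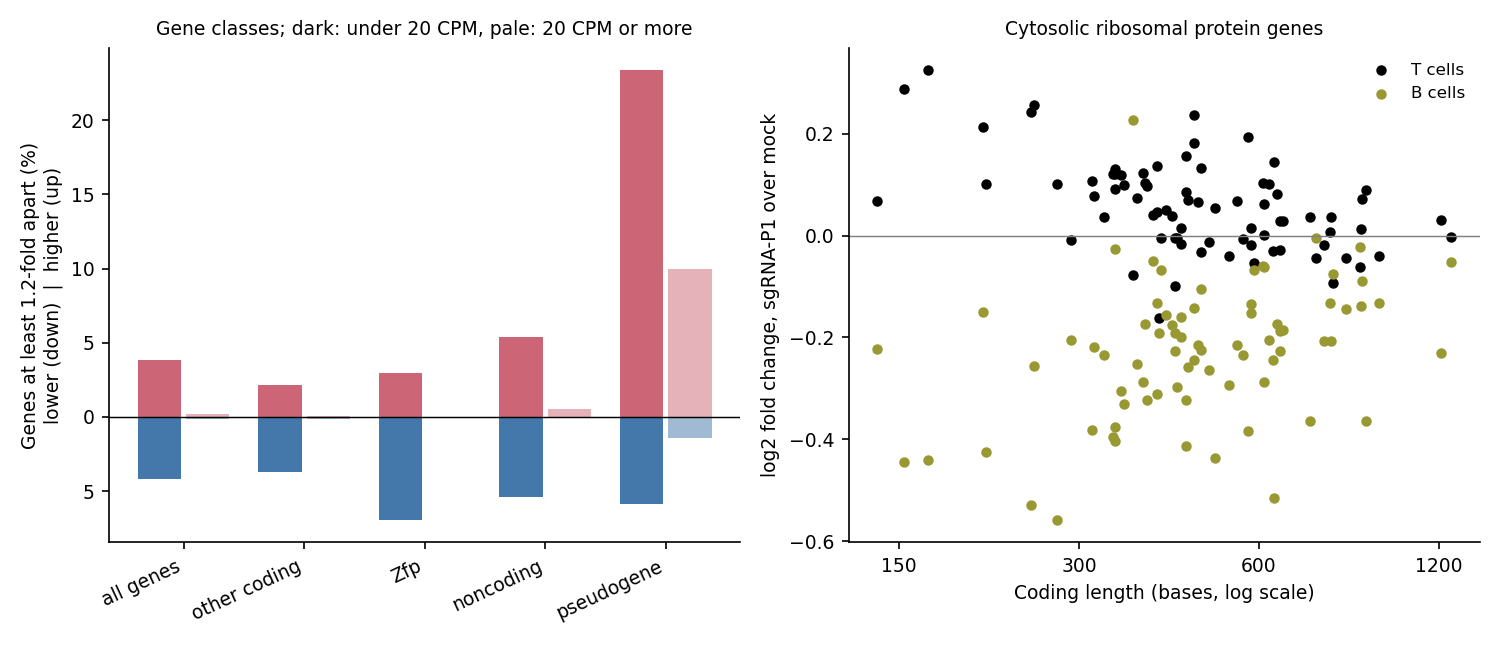
Left, percent of genes at least 1.2-fold higher (up) or lower (down) with the guide by gene class, under 20 CPM (dark) and at 20 CPM or more (pale). Right, log2 fold change of 76 ribosomal protein genes against coding length in bases (log scale) in T cells and B cells; pseudogenes under 20 CPM have the tallest bar at 23.4%, and the third of ribosomal protein genes with the shortest coding length has the highest median in T cells, 0.10.

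The T cell identity of both libraries was plain from their markers. All 11 constant and CD3 chains of the T cell receptor complex were measured, with a median log2 fold change of 0.00, and only Cd247 was more than 0.10 from 0. Trac, the alpha chain constant gene, was at 591 CPM and 588 CPM, Cd3e at 289 CPM and 297 CPM and Cd3d at 294 CPM and 311 CPM. Cd4 was at 656 CPM in mock against 655 CPM with the guide, and Cd8a at 396 CPM and 401 CPM. Both CD4 and CD8 lineage genes were thus present at near-equal levels in the 2 libraries. Of 20 B cell markers 14 were under 5 CPM in both libraries. Among them Ms4a1, a B cell surface protein, was at 0.541 CPM and 0.275 CPM, where B cells had 1575 CPM in mock. The summed level of 20 B cell markers was 406 CPM in mock as against 385 CPM with the guide, of which Ighm, the IgM heavy chain, gave 341 CPM and 323 CPM. Ighm was thus not low but above Cd3d and Cd3e in both libraries, and the source of its reads was not tested. The sums were 11.4 CPM and 12.1 CPM for 20 myeloid markers, 87.1 CPM and 83.0 CPM for 11 natural killer markers, several of which T cells share, 89.6 CPM and 89.9 CPM for 10 dendritic cell markers, 71.9 CPM and 70.1 CPM for 8 plasma cell markers, 6.17 CPM and 7.31 CPM for 12 erythroid and 239 CPM and 231 CPM for 10 stromal markers, nearly all of it Pecam1. In bulk RNA, fewer cells of a type and less RNA per cell cannot be told apart.

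Genes of receptor signalling and of T cell lineage control were slightly to the lower side. Of 42 genes of proximal receptor signalling 33 lay below 0, and 16 had an interval wholly below 0 (38.1%, beside 10.4% of all genes and 17.2% of those at 50 CPM or more) and none above. None was 1.2-fold apart. Their median was -0.04 beside -0.02 over all genes. Nfatc1, a calcium-regulated transcription factor, was the lowest, at 207 CPM in the mock library and 192 CPM in the guide library (-0.11 [-0.16 to -0.05]). Cd5, a negative regulator of the receptor, was at 467 CPM and 439 CPM (-0.09). Of 34 lineage transcription factors 28 lay below 0 and 15 had an interval wholly below 0 (44.1%), with a median of -0.04. Tcf7, the factor TCF-1 of naive and memory T cells, was at 1734 CPM [1720 to 1747] and 1632 CPM [1614 to 1650], a log2 fold change of -0.09. Scaled by total reads alone, the medians of the 2 lists were -0.02 and -0.03, with 13 and 7 intervals wholly below 0 (31.0% and 20.6%, beside 6.86% of all genes). After trends on gene length and GC content were subtracted the medians were -0.03 and -0.04. Over all genes the median was 0.01 in the fifth of lowest GC content and -0.05 in the fifth of highest.

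Subset programmes also differed little in size. Of the 26 naive genes 21 lay below 0, with a median of -0.02. Intervals lay wholly below 0 for 9 of them (34.6%) and wholly above for 1. The share below was 10.4% over all genes and 17.2% at 50 CPM or more. Scaled by total reads alone, 3 of the 26 lay wholly below 0 (11.5%, beside 6.86% of all genes). Ccr7, a chemokine receptor of lymph node homing, was at 510 CPM and 508 CPM. Klf2, a factor of quiescence and recirculation, was at 1058 CPM [1048 to 1069] in mock against 967 CPM [954 to 981] with the guide (-0.13), the lowest of that list. Of 42 memory and effector genes 31 were measured, with a median of -0.02. Gzmb, encoding granzyme B, was at 8.01 CPM and 6.46 CPM (-0.31 [-0.62 to -0.01]) and Tbx21, encoding T-bet, at 11.7 CPM and 9.87 CPM (-0.25). Both have wide intervals that reach close to 0. The 16 regulatory T cell genes had a median of -0.05, and Foxp3, their defining factor, was at 97.2 CPM [94.1 to 101] and 91.0 CPM [86.9 to 95.3] (-0.10). Tnfrsf4, the receptor OX40, was at -0.16 and Ctla4 at 0.07.

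**Figure D4:**
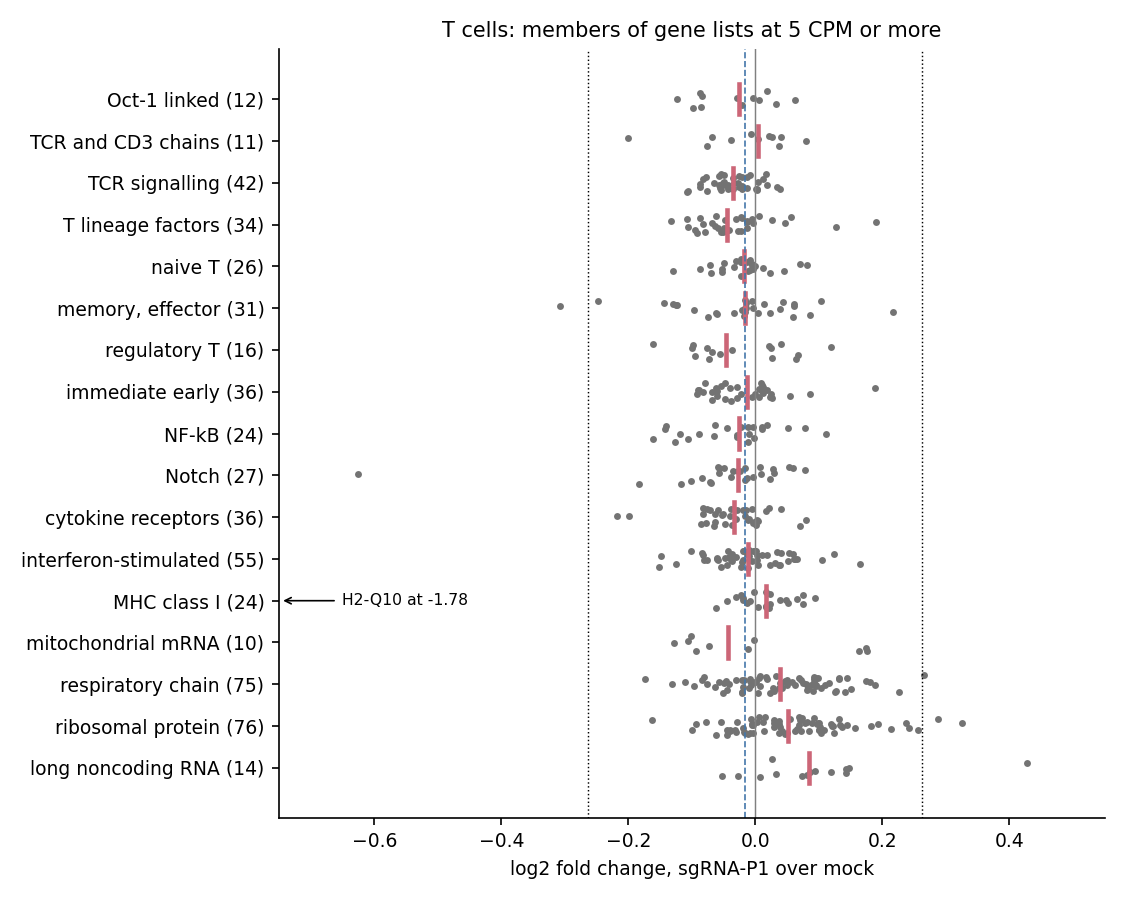
Log2 fold change of the members of 17 gene lists at 5 CPM or more (points; number in parentheses), with each list's median (thick bar), the median of all genes (dashed line) and 1.2-fold (dotted lines). H2-Q10 lies beyond the left edge at -1.78, and all list medians lie between the dotted lines.

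Genes that reviews tie to Oct-1 or to octamer sites lay near the overall median. Of 20 such genes 12 were measured, with a median of -0.03, and none was 1.2-fold apart. The cytokines Ifng (7.24 and 6.64 CPM, -0.12) and Il17a (8.97 and 8.44 CPM, -0.09) and the repressor Bcl6 (28.1 and 26.2 CPM, -0.10) had intervals that include 0. Polr2a, the largest subunit of RNA polymerase II, was at 401 CPM and 393 CPM. Of the 12 genes 8 lay below 0. Intervals lay wholly below 0 for 2 of them and wholly above for none, beside 10.4% and 4.43% of all genes. These were Taldo1, an enzyme of the pentose phosphate pathway, and Tcf7. Taldo1 was at 103 CPM and 97.2 CPM (-0.084 [-0.164 to -0.005]), and Tcf7 had a log2 fold change of -0.09 [-0.11 to -0.07]. Il2, the T cell growth factor, was under the filter at 1.64 CPM and 1.73 CPM. The remaining 7 genes of this list below the filter were under 1 CPM in both libraries.

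The octamer itself was looked up in promoter windows of 300 bases, from 250 before to 50 after each RefSeq start. ATGCAAAT, on either strand, was present in 1.74% of the 32851 windows. Of 7692 measured genes with a window 112 held it (1.46%), with a median log2 fold change of -0.02, as in the 7580 without it. Intervals lay wholly below 0 for 19 of the 112 and for 825 of the 7580, and wholly above for 5 and 295. The median mock level was 52.3 CPM with the octamer and 43.6 CPM without it, and the difference in intervals was not tested. With the octamer 2 genes were 1.2-fold higher and 2 lower (1.79% each), beside 0.594% and 1.121% of those without it. Scaled by total reads alone the 2 lower genes, Kansl1l at -0.25 and Slc7a11 at -0.26, were under 1.2-fold. These 4 are shown with 26 bases on each side of the octamer, which is in capitals, read along the gene's strand in GRCm38.p6.

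Slc7a11, chr3:50443629-50443688, minus strand: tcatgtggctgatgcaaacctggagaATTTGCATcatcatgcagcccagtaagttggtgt
Kansl1l, chr1:66817639-66817698, minus strand: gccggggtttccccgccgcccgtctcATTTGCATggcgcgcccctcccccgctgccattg
Gm20939, chr17:94864680-94864739, plus strand: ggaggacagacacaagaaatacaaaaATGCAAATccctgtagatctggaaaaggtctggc
Hdac9, chr12:34528905-34528964, minus strand: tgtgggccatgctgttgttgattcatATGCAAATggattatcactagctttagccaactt

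Kansl1l, a relative of a histone acetylation complex subunit, was at 22.7 CPM [21.2 to 24.4] in mock against 18.9 CPM [17.0 to 20.9] with the guide (-0.27). Slc7a11, the cystine transporter, was at 8.39 CPM and 6.91 CPM (-0.28). Hdac9, a class II histone deacetylase, was at 5.46 CPM and 6.76 CPM (0.31), and the noncoding Gm20939 at 6.27 CPM and 7.56 CPM (0.27). Only the interval of Kansl1l lay wholly on 1 side of 0. The match is to letters in a window and says nothing of binding.

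Activation and signalling lists were also near the overall median. Of 36 immediate early genes 12 had an interval wholly below 0 (33.3%) and 1 above (2.78%), and none was 1.2-fold apart. The shares were 10.4% below and 4.43% above over all genes, and 17.2% and 5.75% at 50 CPM or more. Scaled by total reads alone, 8 of the 36 intervals lay wholly below 0 (22.2%, beside 6.86% of all genes) and 3 above (8.33%, beside 6.71%). Fos was at 1401 CPM [1389 to 1413] and 1318 CPM [1302 to 1334] (-0.09), Junb at 1285 CPM and 1205 CPM (-0.09), and Rgs2, a regulator of G protein signalling, at 112 CPM and 128 CPM (0.19). The 24 NF-kB genes had a median of -0.03, with Nfkbie, an inhibitor of the pathway, lowest at -0.16. Among 36 cytokine receptor and signalling genes the median was -0.03, and Socs1, a feedback inhibitor, was at 33.1 CPM [31.2 to 35.0] and 28.4 CPM [26.1 to 30.8] (-0.22). Of 27 Notch pathway genes Maml3 was the 1 past 1.2-fold, and Maml1 was at 83.2 CPM and 73.3 CPM (-0.18). The 55 interferon-stimulated genes had a median of -0.01.

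Among 24 class I presentation genes only H2-Q10 was 1.2-fold apart. H2-K1, a classical heavy chain, was at 3784 CPM in mock against 3733 CPM with the guide, and H2-D1 at 2435 CPM and 2332 CPM (-0.06). The Q region neighbours H2-Q4, H2-Q6 and H2-Q7 were at 0.02, 0.07 and 0.02. Class I genes share long stretches of sequence, so the split of reads between them is uncertain. Of 10 mitochondrial mRNAs mt-Nd4 was at 1293 CPM and 1184 CPM (-0.13), and mt-Nd6 was at 0.16, mt-Co3 at 0.17 and mt-Co2 at 0.18. The list median was -0.04 beside 0.72 in B cells. In the mock library mt-Co2 was at 44.6 CPM and mt-Co3 at 30.1 CPM, far below mt-Nd4. How reads with several matches were counted is not given, so the values of mt-Co2 and mt-Co3 are uncertain. The part of such reads in their fold changes was not tested. Of 75 nuclear genes of the respiratory chain 50 lay above 0, beside 4142 of 10007 over all genes. Their median was 0.04, beside -0.02 over all genes and -0.17 for the same list in B cells. Ndufa3 was the 1 past 1.2-fold, where 1.21% of all genes were higher by that size. Of 18 genes of the ATF4 response 14 lay below 0, beside 5865 of 10007 over all genes. Their median was -0.05, and 2 were 1.2-fold lower, beside 1.26% of all genes. Sesn2, a stress-induced regulator of growth signalling, was the lowest, at 5.85 CPM and 4.28 CPM (-0.45). Atf4 itself was at 279 CPM and 261 CPM (-0.10). Of 28 proliferation genes Stmn1, which binds tubulin, was the 1 past 1.2-fold, at 16.03 CPM and 12.05 CPM (-0.41 [-0.63 to -0.19]).

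The other lists held few genes past 1.2-fold. Of 21 clock genes Per3 was the 1, at 5.21 CPM and 3.58 CPM (-0.54). Of 29 autophagy genes it was Map1lc3a, which encodes an LC3 protein of the autophagosome (5.20 and 3.51 CPM, -0.56), and of 31 cilium genes Rpgrip1l (6.06 and 4.23 CPM, -0.51). These 3 are close to the 5 CPM filter, and they were selected as the largest of their lists. Of 35 chaperone genes Bag3, a partner of heat shock proteins, was at 14.8 CPM and 12.3 CPM (-0.27), while Hspe1, a mitochondrial co-chaperonin, was at 81.3 CPM and 90.4 CPM (0.15). None of 43 genes of glycolysis and linked pathways, 23 of cholesterol and fatty acid synthesis, 28 of migration, 8 Gimap genes and 11 genes of the BCL2 family was 1.2-fold apart. In those lists Tpi1, a glycolytic isomerase, was at -0.16, the sterol regulator Srebf2 at 372 CPM and 345 CPM (-0.11) and the fatty acid synthase gene Fasn at 264 CPM and 244 CPM (-0.12). The Gimap genes, GTPases that support lymphocyte survival, ran from -0.06 for Gimap9 to 0.08 for Gimap7.

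Shares of T cell receptor variable segments were near-equal in the 2 libraries. Reads over 29 Trbv segments, the variable genes of the beta chain, summed to 527 CPM in mock as against 539 CPM with the guide, and the 17 at 5 CPM or more ranged from -0.22 for Trbv15 to 0.13 for Trbv26. Trbv3 held 10.6% of Trbv reads in mock and 11.3% with the guide, Trbv13-2 9.72% and 9.43%, Trbv16 8.24% and 7.87%, Trbv1 7.30% and 7.59% and Trbv19 6.90% and 7.11%. The order of these 5 was equal in both libraries. The 100 Trav segments of the alpha chain summed to 202 CPM and 201 CPM, with Trav14-1 the first at 5.61% and 5.45% of Trav reads. Trav14n-3 was the 1 variable segment of 5 CPM or more past 1.2-fold, at 7.10 CPM and 9.09 CPM (0.36 [0.08 to 0.64]). Of the joining segments, Traj3 was past 1.2-fold, at 5.70 CPM and 4.63 CPM (-0.29 [-0.66 to 0.07]). Trav segments have near-identical copies in the mouse locus, so single segments are uncertain.

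**Figure D5:**
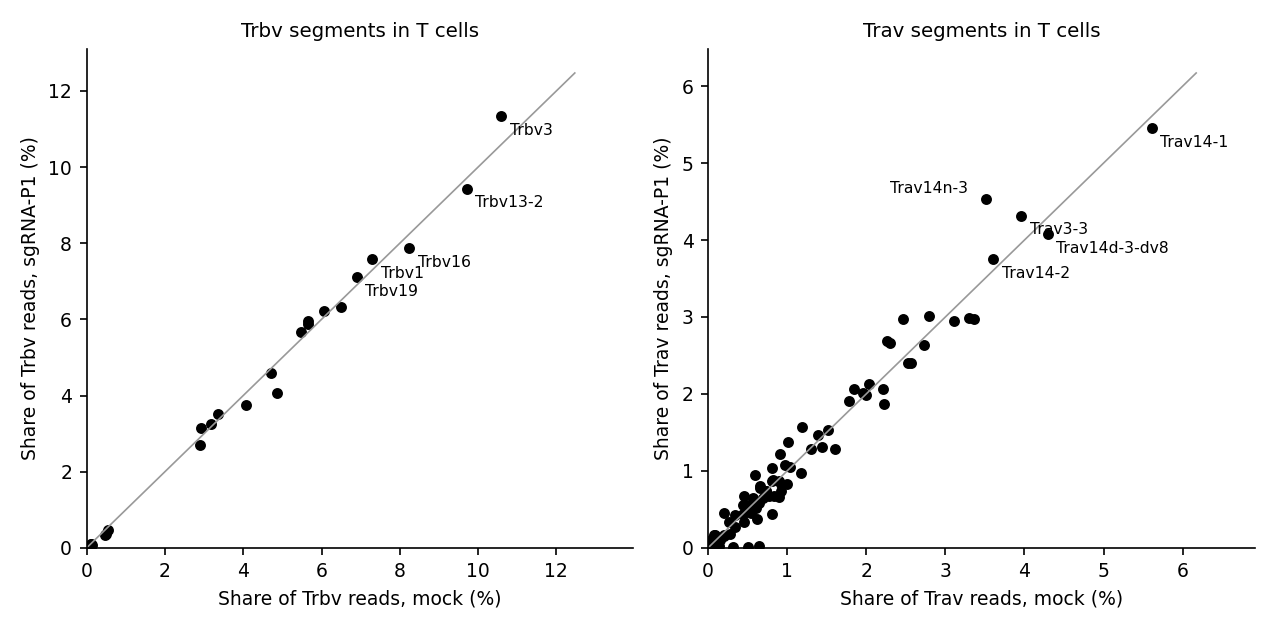
Share of Trbv reads (left, 29 segments) and Trav reads (right, 100 segments) in percent, mock on the x axis and sgRNA-P1 on the y axis, with the line of equal shares and the 5 most abundant segments named. Points follow the line, and Trav5d-4 and Trav7n-6 are among those near 0 on the y axis.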

How the data were processed

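The deposited file is the authors' table of raw counts, with 56893 genes in rows and 10 columns. HISAT2 and featureCounts are named, with the builds hg38 and mm39, per the submitters' processing notes. Not given in the sources used here are versions, annotation, strand setting and the treatment of reads with several matches. Columns were assigned by their labels. In each of the 2 T cell groups every gene with reads fitted a single count divided in 1 proportion. The fit was within 1 read plus a small allowance that grew with the count of the gene. The columns were therefore summed, which left 1 library in each group and no test.

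TMM factors were computed from the sums of all 5 libraries (edgeR 4.0.16, R 4.3.3) and were 1.004 for mock and 1.015 for the guide. Log2 fold changes have a prior of 1 read in each library. It is not scaled to depth, so it moves genes of few reads toward the shallower guide library, by at most 0.0042 at 5 CPM or more against a prior scaled to depth. Among genes with few reads, 72.6% of mock and 74.8% of guide sums were even once a read lost in the division was restored. Paired reads counted singly would give mostly even sums, but many sums were odd, so the check does not settle this. Exact Poisson intervals of levels and exact conditional intervals of fold changes (95%) were taken on reads divided by 2, as for pairs. They cover counting error only. Genes at 5 CPM or more in the higher library were sorted by size, 1.5-fold and 1.2-fold, in place of a test. The calculation was tested on simulated data. Biotype, GC content and coding length came by symbol from GENCODE M21 on GRCm38 (GC content for 96.6% of measured genes), and promoter windows from RefSeq on GRCm38.p6.

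The genes named are Pou2f1, its relatives, all genes past 1.5-fold, the 10 highest and 10 lowest at 50 CPM or more, the 10 highest per length past 1.2-fold, up to 4 members of each of 42 gene lists and the most abundant segments. Other named genes were chosen after their values were seen, as were the neighbours, parents of pseudogenes and the genes at 20 CPM or more. The gene lists and the comparison itself were chosen with earlier results of these data known. The alternatives were other size factors (DESeq2 1.42.0 among them), other filters, another prior and single columns. Trends on gene length and GC content, interval counts under other size factors the restriction to genes at 5 CPM in both libraries and a prior scaled to depth were added after seeing the data. Values of some genes are not reported here.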

Additional observations from a re-analysis of the deposited data

Results flagged for a closer look

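Gm4202 had a log2 fold change of 1.0151 in T cells and -0.8717 in B cells with the sgRNA-P1 guide, each against its own mock library. Hspd1-ps3 had values of 1.5131 in T cells and -1.4715 in B cells. These were picked because the libraries of the 2 cell types moved in opposite directions, and the difference was not tested. Both are processed pseudogenes whose reads can match other genes.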

How the results depend on the processing

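Under every alternative run, Pou2f1 stayed between -1.08 and -1.05 on the log2 scale. The numbers of genes past a size depended on the filter. With genes at 1 CPM or more, 160 were 1.5-fold higher and 122 lower, and 780 and 648 were past 1.2-fold. With genes at 20 CPM or more, 3 and 3 were past 1.5-fold and 13 and 9 past 1.2-fold. With no filter they were 3685 and 2875 past 1.5-fold, and 5508 and 4282 past 1.2-fold. With no filter and a prior scaled to depth, these were 3074 and 4487, and 4994 and 6133, so the direction of the split among unfiltered genes depends on the prior. At 5 CPM or more that prior gave 6 and 5, and 120 and 128. From a single column of each group, the numbers past 1.5-fold were 6 higher and 5 lower with either column. Those past 1.2-fold were 99 to 107 higher and 160 to 169 lower, and Pou2f1 was at -1.0849 to -1.0770. The columns are divisions of 1 library, so agreement between them is no support. With length and GC trends subtracted 4 genes were 1.5-fold higher and 4 lower: Gm4149 (0.58), Gm28437 (0.56) and Cdc42ep4 (-0.56) were under 1.5-fold. Cdc42ep4 was also under it by total reads (-0.58) and with a prior of 5 reads (-0.58), and Gm4149 with the length trend alone (0.57). By total reads alone 146 and 106 genes were past 1.2-fold. Of 124 named genes, Pou2f2, at 0.00, was the 1 whose sign changed, and Gm4332, Gm3788, Gm10443, Bag3 and Ndufa3 fell under 1.2-fold in at least 1 alternative. The median of a list changed sign in 14 of 34 lists, all of them within 0.03 of 0. No paired analysis was possible because the 2 columns of a group are divisions of 1 library and their numbers pair no samples. Fold changes of genes near 5 CPM are limited by the 39352816 reads of the guide library. A quasi-likelihood fit, meant for the case of independent columns, was not run for the same reason.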

Other observations

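Below the filter, 3124 genes lay between 1 and 5 CPM in the higher library, and 6 of them were at least 3-fold apart. They were chosen after their values were seen. The lower genes were both variable segments of the T cell receptor alpha chain. Trav7n-6 had 93 reads in mock and 2 with the guide, a log2 fold change of -4.12 [-10.04 to -2.15]. Trav5d-4 had 74 reads and 1 (-4.38 [-9.70 to -1.79]). Over all Trav reads they made up 0.639% and 0.508% in mock and 0.0250% and 0.0125% with the guide. Such segments have near-identical copies, among which reads can be divided.

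The 4 higher genes were Ermardl1, A830005F24Rik, Gm28884 and Gm10163. Ermardl1 had 100 reads in mock and 180 with the guide, 1.39 CPM [1.03 to 1.83] and 4.51 CPM [3.62 to 5.54], a log2 fold change of 1.69 [1.19 to 2.23]. It was at 2.84 CPM and 2.68 CPM in the B cell libraries. Gm10163 had 20 reads and 66 reads (2.53 [1.52 to 3.76]). A830005F24Rik and Gm28884 had under 50 reads in each library, with log2 fold changes of 2.06 and 2.44.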
